A study of Mus musculus with 10 samples.

Results

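Polycomb repressive complex 2 (PRC2) and the H3K27 demethylases are represented here by 10 genes, chosen by symbol from the deposited table, out of 20045 gene symbols. They are the catalytic subunits Ezh1 and Ezh2, the core subunits Eed and Suz12, the cofactor Jarid2, the Polycomb-like proteins Phf1, Mtf2 and Phf19, and the demethylases Kdm6a (UTX) and Kdm6b (JMJD3). The 10 genes fill 12 of the 25152 entries of the table, because Ezh2 and Suz12 each have 2 entries with identical values, which were counted once.

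The study followed 2 histone modifications in maturing mouse retina by ChIP-Seq, H3K4me2, which is found at active and poised promoters, and H3K27me3, which is found at repressed genes. Retinas were taken at E17.5 (embryonic day), PN1, PN7 and PN15 (postnatal days), and at least 20 retinas were pooled for each stage. Each mark has 1 library at each of the 4 stages, so no difference between stages can be set against replicate error, and the 2 further libraries of the series, H3K4me2 of adult rd1/rd1 retina and an anti-GFP control, were not analysed here. The methods of the study give wild type C57BL/6j mice for the 4 stages, whereas the label of every library names the Pde6b (rd1/rd1) strain, a mutant that loses its rods, and the labels of the embryonic libraries write E17. The labels also give the catalogue numbers of the antibodies the other way round from the methods, so each library was assigned to its mark by its title. The deposited values are the normalized occupancy, which stands for the reads within 2.5 kb of a transcription start site (TSS), scaled by the mapped reads and given in whole numbers.

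PRC2 places methyl groups on lysine 27 of histone H3, and its trimethylated form keeps developmental genes silent. Ezh2 or Ezh1 carries the methyltransferase activity, which depends on Eed and Suz12, while Jarid2 and the Polycomb-like proteins bring the complex to chromatin at CpG islands. Kdm6a and Kdm6b remove the mark. In many tissues Ezh2 is associated with dividing progenitors and Ezh1 with differentiated cells, and the retina makes this transition in the days after birth, when the last progenitors leave the cell cycle and rods mature.

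All windows have the same length, so that occupancies can be compared between genes within a library and mark. The background was taken as the 99th percentile of 1053 entries of olfactory receptor genes, which retinal cells do not use, in the same library. In the order of the stages it lay at 6, 9, 1 and 9.48 for H3K4me2 and at 33.48, 43.96, 40.48 and 41.48 for H3K27me3. For H3K27me3 this threshold was strict, since the 95th percentile of the same entries lay between 21.0 and 29.0 and the 99th percentile of vomeronasal receptor entries between 16.55 and 26.55. Below background thus means below this threshold, not that the mark was absent. The study itself found H3K27me3 at some olfactory receptor genes, so that the threshold of this mark may lie among entries that carry it. A 95% counting interval is given for single values from the estimated number of reads behind them. It covers counting error only.

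Facts of the libraries bear on every comparison between stages. The H3K4me2 library of PN7 stood apart, with 19.5% of all entries at 0 against 0.362% to 2.52% in the other H3K4me2 libraries. In the H3K27me3 library of PN15 the median of 39 Hox genes was 318, against 654 to 952 in the other 3. H3K4me2 at the rod markers Nrl, Nr2e3, Pde6b, Sag and Gnat1 summed to 76 and 84 around birth, at E17.5 and PN1, then to 107 at PN7 and to 476 at PN15. These genes of mature rods thus had their highest H3K4me2 at the last stage. Over the same span, from E17.5 to PN15, the sums fell from 191 to 62 at the amacrine markers Pax6 and Tcfap2b (2 of 2 called lower by the 2-fold rule given below) and from 90 to 44 at the ganglion cell markers Pou4f2 and Thy1 (1 of 2). The bipolar marker Grm6 had 30 and 33. The sums were 116 and 117 at the Müller glia markers Rlbp1 and Glul, of which Rlbp1 went from 37 to 6. Markers of liver, muscle, erythroid and T cells (Alb, Myod1, Hbb-b1 and Cd3e) lay between 2 and 18 at E17.5 and between 0 and 16 at PN15. The vessel, microglia and astrocyte markers summed to between 12 and 73, of which Gfap, a marker of astrocytes, had 31, 12, 4 and 54. In whole retina a larger share of cells with a mark and more of the mark in each cell cannot be told apart.

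All 10 genes had H3K4me2 above background in all 4 libraries, as did 65.3% of all symbols. H3K27me3 was above background at 1 of the 10 genes, Phf19, against 20.1% of all symbols that passed in any library. Phf19 passed in all 4 libraries. Both marks by these rules were thus present at Phf19 and at 15.2% of all symbols. The plot of both marks by stage shows this division.

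**Figure D1:**
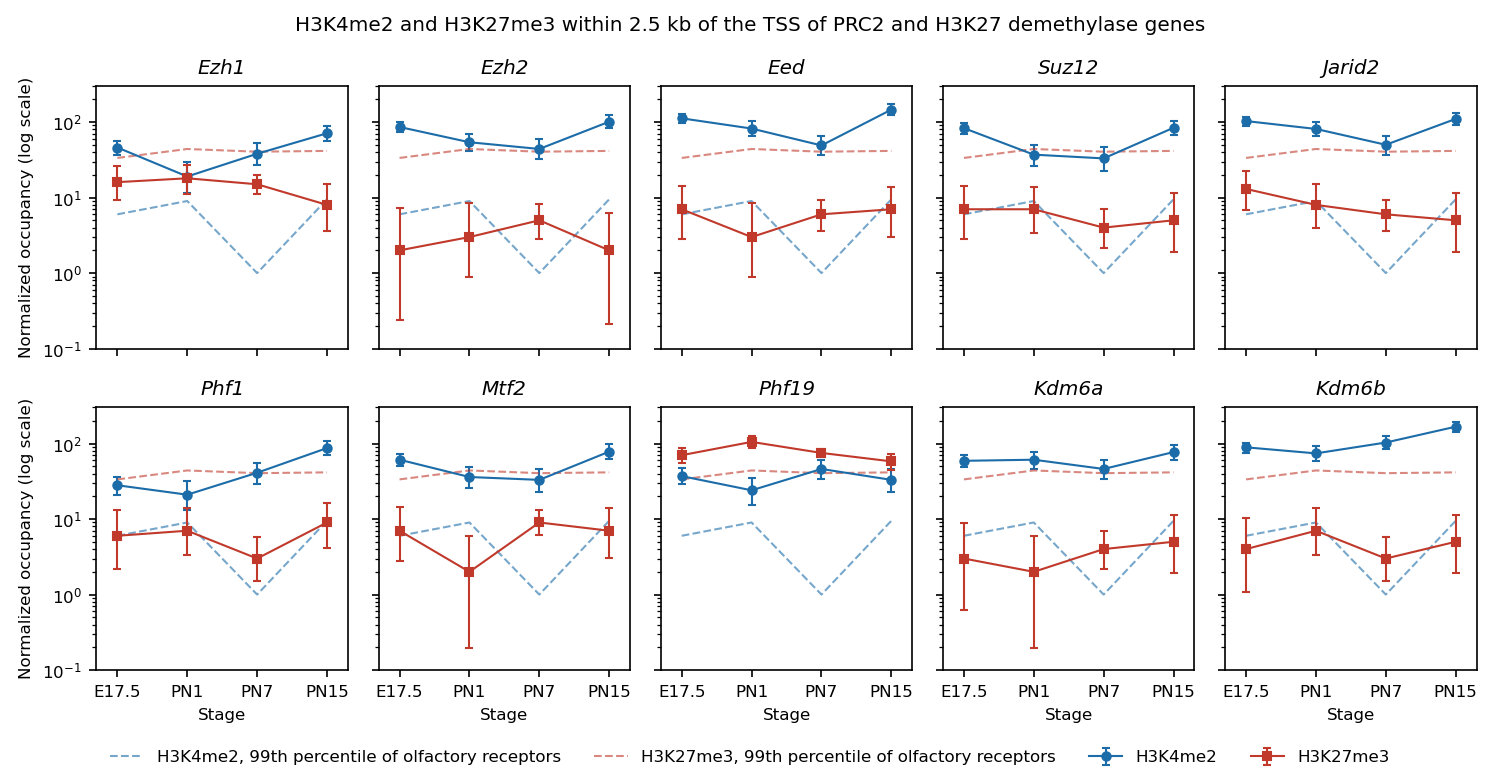
Normalized occupancy of H3K4me2 (blue circles) and H3K27me3 (red squares) on a log axis at each of the 10 genes by stage, with 95% counting intervals and 1 library for each point. Dashed lines are the 99th percentile of olfactory receptor entries in the same library. H3K4me2 lies above its line everywhere, and H3K27me3 lies above its line only at Phf19, where it runs from 58 to 105.

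H3K4me2 of the catalytic pair was lower at Ezh1 than at Ezh2 in each of the 4 libraries. Ezh2, the methyltransferase associated with dividing cells, had an occupancy of 86, 54, 44 and 101 from E17.5 to PN15. Ezh1, its counterpart in non-dividing cells, had 46, 19, 38 and 71 at the same stages. The ratio of Ezh1 to Ezh2 within a library does not depend on how the library was scaled. It was 0.535 (95% interval 0.406 to 0.698) and 0.352 (0.200 to 0.593) at E17.5 and PN1, and 0.864 (0.544 to 1.36) and 0.703 (0.511 to 0.962) at PN7 and PN15. Only at PN7 did the interval include equal occupancy. The intervals of E17.5 and PN15 overlap, so that a shift of the pair between the first and the last stage was not detectable at this depth.

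H3K27me3 was below background at both. Ezh2 had 2, 3, 5 and 2, and its mean over the 4 libraries lay at percentile 0.639 of all symbols, the lowest of the 10 genes. Ezh1 had 16, 18, 15 and 8, the second highest mean of the 10, which lay at percentile 63.7 of all symbols. By stage it stood at percentiles 68.0, 70.1, 66.8 and 32.9, and at PN15 its value of 8 was below the median symbol. Each value was nevertheless below the olfactory receptor background of its library. At PN1 the value of 18 passed a lower threshold of 16.55, the 99th percentile of vomeronasal receptor entries, with which the number of genes with H3K27me3 became 2 of 10, beside 36.7% of all symbols.

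In the mm9 build, and with the annotation of GENCODE, Ezh1 lies at chr11:101052429-101087777 on the minus strand and Ezh2 at chr6:47480273-47545340 on the minus strand. The 250 bases before their start sites are shown because these promoters differ in their CpG dinucleotides, the feature that Polycomb-like proteins and H3K4 methyltransferase complexes read, and CpG dinucleotides are in capitals. Sequences are from RefSeq (GRCm38.p6 tables) and were placed in mm9 by exact match, Ezh2 at chr6:47545030-47545279 and Ezh1 at chr11:101087778-101088027, both written 5′ to 3′ on the minus strand.
Ezh2 promoter: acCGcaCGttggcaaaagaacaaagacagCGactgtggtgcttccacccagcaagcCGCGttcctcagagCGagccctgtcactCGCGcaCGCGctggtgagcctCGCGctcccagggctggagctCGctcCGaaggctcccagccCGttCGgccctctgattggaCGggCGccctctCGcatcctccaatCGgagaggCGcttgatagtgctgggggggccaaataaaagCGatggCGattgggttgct
Ezh1 promoter: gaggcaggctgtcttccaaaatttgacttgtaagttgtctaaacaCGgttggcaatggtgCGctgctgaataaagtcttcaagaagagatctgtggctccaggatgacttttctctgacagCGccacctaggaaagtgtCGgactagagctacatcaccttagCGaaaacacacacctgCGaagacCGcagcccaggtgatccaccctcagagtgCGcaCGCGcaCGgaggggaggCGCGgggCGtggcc
The Ezh2 stretch holds 23 CpG dinucleotides and the Ezh1 stretch 14.

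The core subunits Eed and Suz12 carried H3K4me2 at every stage and little H3K27me3. Eed, which binds trimethylated H3K27 and stimulates the enzyme, had an H3K4me2 occupancy of 112, 82, 49 and 146 from E17.5 to PN15. It ranked at percentiles 98.7, 99.1, 81.6 and 98.2 of all symbols. Suz12, which holds the complex together, had 83, 37, 33 and 84. Eed exceeded Suz12 in all 4 libraries, by a ratio of 1.35 (1.09 to 1.67), 2.22 (1.51 to 3.34), 1.48 (0.936 to 2.38) and 1.74 (1.32 to 2.30), and the interval included 1 only at PN7. H3K27me3 ranged from 3 to 7 at Eed and from 4 to 7 at Suz12. Jarid2, the cofactor that binds nucleosomes and helps recruit PRC2, had an H3K4me2 occupancy of 103, 81, 50 and 110, close to Eed at E17.5, PN1 and PN7. Its H3K27me3 was 13, 8, 6 and 5, below background in every library. Eed lies at chr7:97103166-97129493 on the minus strand, Suz12 at chr11:79806608-79847625 on the plus strand and Jarid2 at chr13:44824843-45017012 on the plus strand (mm9).

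The 3 Polycomb-like genes took different courses in H3K4me2. Phf1 had an H3K4me2 occupancy of 28, 21, 41 and 87 in the order of the stages. It was the lowest of the 10 genes at E17.5 and the fifth from the top at PN15, and moved from percentile 39.8 to percentile 81.3 of all symbols. Mtf2 had 61, 36, 33 and 78. Phf19 had 37, 24, 46 and 33, and was the lowest of the 10 genes at PN15. Mtf2 and Phf1 thus had their highest value at PN15, and Phf19 at PN7.

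In the order of the stages the ratio of Phf1 to Mtf2 was 0.459 (0.322 to 0.639), 0.583 (0.326 to 1.0), 1.24 (0.766 to 2.03) and 1.12 (0.812 to 1.53). Its intervals at E17.5 and PN15 did not overlap. Phf1 and Phf19 did not differ beyond counting error until PN7, with ratios of 0.757 (0.515 to 1.10), 0.875 (0.473 to 1.63) and 0.891 (0.571 to 1.39), each with an interval that included 1. At PN15 the ratio was 2.64 (1.75 to 4.06).

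**Figure D2:**
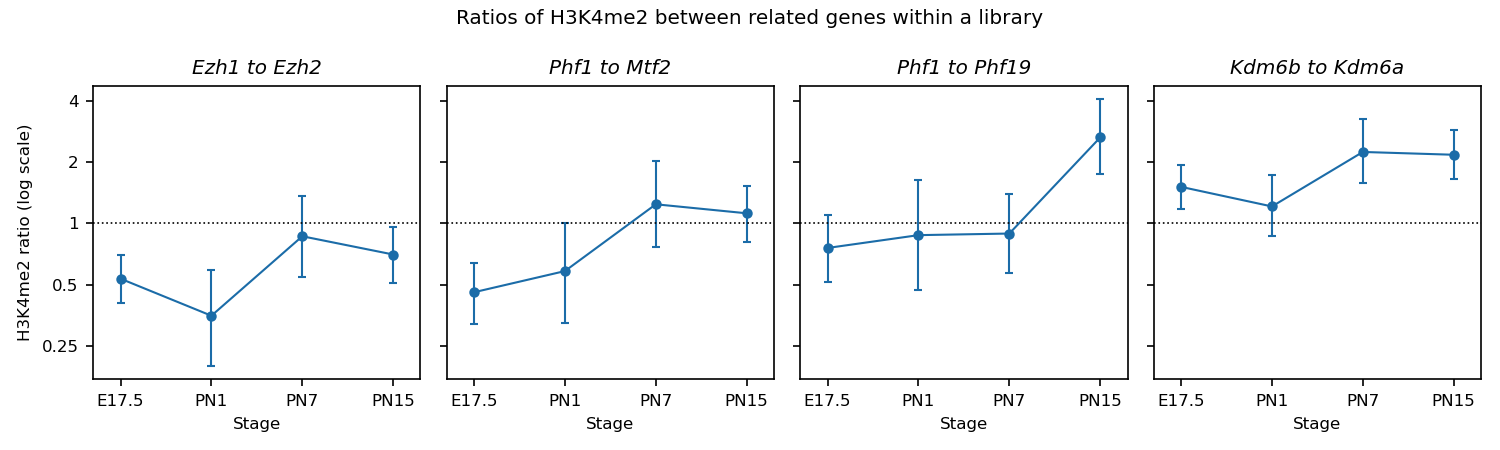
Ratio of the H3K4me2 occupancies of related genes within each library on a log axis, by stage, with exact 95% counting intervals and a dotted line at 1. Ezh1 stays below Ezh2 at every stage, Phf1 passes from below Mtf2 to about its level, Phf1 exceeds Phf19 by 2.64 at PN15, and Kdm6b exceeds Kdm6a at every stage.

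H3K27me3 at Phf19 was 70, 105, 75 and 58 from the first to the last stage, and thus 1.40 to 2.39 times the background of the same library. The other Polycomb-like genes had 6, 7, 3 and 9 (Phf1) and 7, 2, 9 and 7 (Mtf2). Within each library Phf19 exceeded the next of the 10 genes by ratios of 4.38 (2.52 to 8.07), 5.83 (3.68 to 9.61), 5.0 (3.65 to 6.97) and 6.44 (3.37 to 14.4), in the order of the stages. The next gene was Ezh1 at the first 3 stages and Phf1 at PN15. Phf19 ranked between percentile 89.8 and percentile 91.4 of all symbols at the 4 stages.

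Among the 4035 symbols with H3K27me3 above background Phf19 was of middle rank. Its mean over the 4 libraries was 77.0, and the median of those symbols was 71.0 (quartiles 41.75 and 155.5). Its mean H3K4me2 was 35.0 against a median of 31.0, and 75.3% of those symbols had H3K4me2 above background in all 4 libraries as well.

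The promoters of Phf1 and Phf19 are shown because these related genes were the one with the change in H3K4me2 from E17.5 to PN15 and the one with H3K27me3. Phf1 lies at chr17:27070072-27074835 on the plus strand, Phf19 at chr2:34749277-34769546 on the minus strand, and Mtf2 at chr5:108494693-108538023 on the plus strand. The stretches cover chr17:27069822-27070071 and chr2:34769497-34769746 in mm9, from the same source and with CpG dinucleotides in capitals.
Phf1 promoter: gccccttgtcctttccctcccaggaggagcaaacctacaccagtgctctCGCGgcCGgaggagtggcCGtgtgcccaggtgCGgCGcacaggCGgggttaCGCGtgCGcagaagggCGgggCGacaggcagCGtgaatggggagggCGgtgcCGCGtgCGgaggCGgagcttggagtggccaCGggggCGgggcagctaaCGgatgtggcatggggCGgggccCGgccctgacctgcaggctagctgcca
Phf19 promoter: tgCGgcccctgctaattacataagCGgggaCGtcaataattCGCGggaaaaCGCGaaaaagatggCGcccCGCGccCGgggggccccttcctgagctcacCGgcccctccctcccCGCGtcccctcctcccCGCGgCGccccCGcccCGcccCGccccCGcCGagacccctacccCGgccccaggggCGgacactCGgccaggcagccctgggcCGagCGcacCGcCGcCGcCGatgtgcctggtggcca
They hold 23 and 31 CpG dinucleotides. The start site of the lincRNA Gm13448, on the opposite strand, lies 1105 bp inside Phf19, within the window of its occupancy, and that of a U6 snRNA lies 2274 bp before Phf19. No start site of a second gene in GENCODE lies within 2.5 kb of the RefSeq start sites of the other 8 genes with one, nor of the GENCODE start site of Kdm6b at position 69227177.

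RefSeq promoters of 300 bases, from 250 before to 50 after the start site, matched 9 of the 10 genes with 11 promoters, since Jarid2 and Mtf2 have 2 each. Which of these start sites the single entry of each gene stands for is not given in the sources used here. They held between 2 and 41 CpG dinucleotides, and the median of 17160 promoters of symbols in the table was 15. Phf19 had 38, at percentile 93.3, Suz12 had 41 at percentile 95.5, Ezh2 had 31 at percentile 85.6 and Ezh1 had 23 at percentile 69.9. Among these promoters only that of Suz12 had more CpG dinucleotides than that of Phf19, the gene with H3K27me3. The share of G and C was 74.3% at Phf19 and 71.0% at Suz12, and Kdm6b had no promoter to compare. A link between CpG dinucleotides and the mark was not tested. The lowest number of CpG dinucleotides, 2, belonged to the downstream promoter of Mtf2, whose other promoter had 30.

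Motifs of 7 kinds were searched in these promoters on both strands, and none contains another. The GC box, GGGCGG, was found in 7 of the 11 promoters and in 49.2% of all promoters, and the CCAAT box, CCAAT, in 6 of 11 and in 37.9% of all. Phf1 and Phf19 each held the GC box 4 times before the start site, at positions −137, −107, −65 and −37 in Phf1 and −109, −104, −99 and −66 in Phf19, counted from the start site. Ezh2 held CCAAT at −90, −64 and −11, and was the only 1 of the 11 with the E2F motif TTTGGCGC, which occurs in 0.705% of all promoters. The other E2F motif searched, TTTCGCGC (0.472% of all promoters), the ETS motif CCGGAAG (11.7%) and the CRX and OTX2 motif TAATCC (6.23%) were in none of the 11. The TATA box, TATAAA (12.1%), was in 1, the downstream promoter of Jarid2. Other forms of the E2F motif were not searched, so that Ezh2 need not be the only promoter with one. A match of letters does not show that a factor binds there.

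The demethylases had no H3K27me3 above background and contrasted in H3K4me2. Kdm6b, which is often induced by signals in differentiating cells, had an H3K4me2 occupancy of 89, 74, 103 and 167, and the 95% interval at PN15, 143 to 194, lay above that at E17.5, 75.9 to 103. It was the highest of the 10 genes at PN7 and PN15 and stood at percentile 99.3 of all symbols at PN15. Kdm6a, the X-linked demethylase, had 59, 61, 46 and 77. The ratio of Kdm6b to Kdm6a was 1.51 (1.18 to 1.94), 1.21 (0.864 to 1.72), 2.24 (1.57 to 3.24) and 2.17 (1.65 to 2.88), and the interval included 1 only at PN1. H3K27me3 lay between 3 and 7 at Kdm6b and between 2 and 5 at Kdm6a. Kdm6a lies at chrX:17739701-17857062 on the plus strand and Kdm6b at chr11:69212010-69227177 on the minus strand.

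Ordered by the mean H3K4me2 over the 4 libraries, Kdm6b came first (108.2), followed by Eed (97.25), Jarid2 (86.0), Ezh2 (71.25), Kdm6a (60.75), Suz12 (59.25), Mtf2 (52.0), Phf1 (44.25), Ezh1 (43.5) and Phf19 (35.0). The ranges over the stages of neighbours in this order overlap. Within a library the 10 genes form 9 neighbouring pairs, and few of these differed beyond counting error. They were 1 pair at E17.5 (Suz12 above Mtf2), 0 at PN1, 1 at PN7 (Kdm6b above Jarid2) and 2 at PN15 (Eed above Jarid2, and Ezh1 above Phf19). The top of the order, Eed and Jarid2 at E17.5 and PN1, passed to Kdm6b at PN7 and PN15, although Kdm6b and Eed did not differ beyond counting error at PN15.

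Changes between stages are log2 ratios after adding 1 to each value, relative to the median of all symbols, and a change was called when it reached 2-fold. That median was 0.13 for H3K4me2 from E17.5 to PN15. Over this span 1 of the 10 genes was called higher, Phf1, against 5.17% of all symbols, and 0 were called lower, against 12.8%. H3K4me2 at Phf1 rose 2.77-fold, a log2 change of 1.47 (1.0 to 2.03) at percentile 98.2 of all symbols. H3K4me2 at the rod markers rose in the same comparison at 5 of 5 genes, from between 9 and 35 to between 53 and 116, whereas 4 of the 7 markers of bipolar, Müller glia, ganglion and amacrine cells were called lower. The part of these cell types in the change at Phf1 was not tested. Kdm6b followed with a relative log2 change of 0.77 (0.46 to 1.10), below the 2-fold limit, and Ezh1 with 0.48 (0.02 to 0.96). The other 7 genes lay between −0.29 (Phf19) and 0.25 (Eed), each with an interval that included 0. The median of the 10 genes was 0.23 and 7 of them lay above the median of all symbols.

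**Figure D3:**
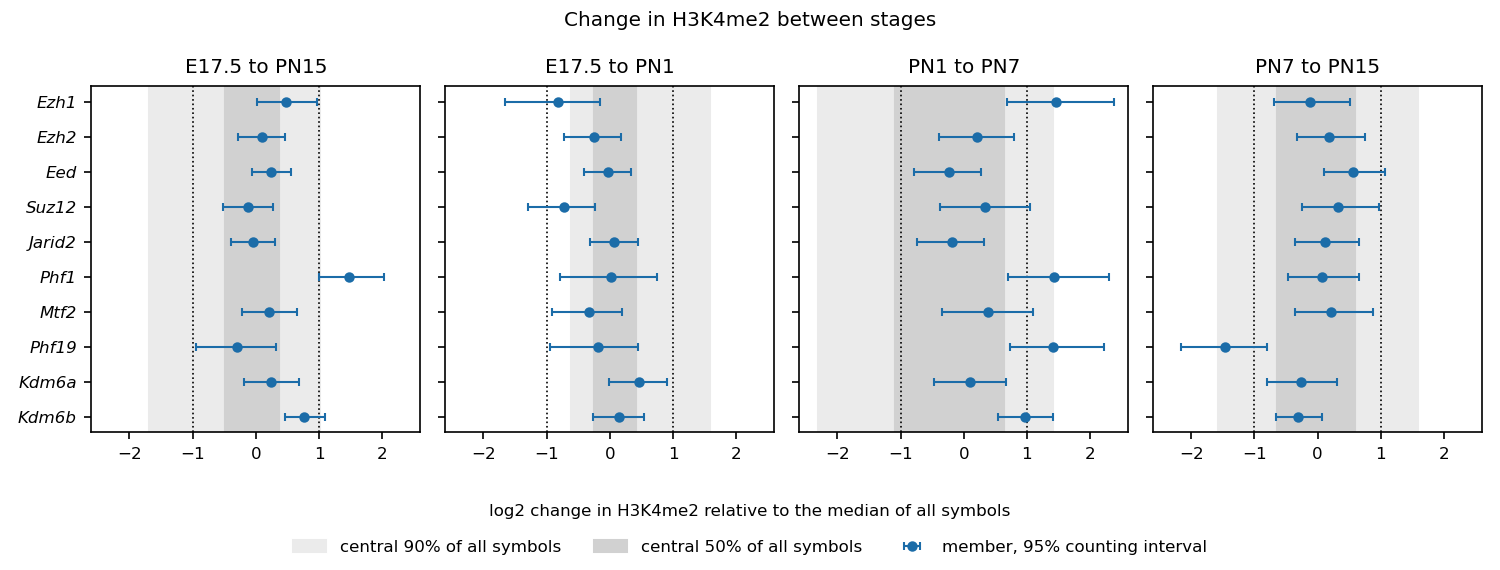
Relative log2 change in H3K4me2 of the 10 genes between the stages named above each panel, with 95% counting intervals. Grey bands hold the central 50% and 90% of all 20045 symbols and dotted lines mark 2-fold. Phf1 lies past the line from E17.5 to PN15, Ezh1, Phf1 and Phf19 from PN1 to PN7, and Phf19 on the lower side from PN7 to PN15.

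Between neighbouring stages the libraries as a whole differed more, with medians over all symbols of −0.42 from E17.5 to PN1, −0.50 from PN1 to PN7 and 1.0 from PN7 to PN15. From E17.5 to PN1, 0 of the 10 genes were called (13.7% of all symbols higher, 1.12% lower). The lowest relative changes were those of Ezh1, −0.82 (−1.65 to −0.15), and Suz12, −0.73 (−1.3 to −0.24). They stood at percentiles 2.13 and 3.04 of all symbols.

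From PN1 to PN7, 3 genes were called higher, against 13.7% of all symbols, and 0 lower, against 26.6%. They were Ezh1 with a relative log2 change of 1.46 (0.69 to 2.37), Phf1 with 1.43 (0.70 to 2.30) and Phf19 with 1.41 (0.73 to 2.22). As deposited, Ezh1 went from 19 to 38, Phf1 from 21 to 41 and Phf19 from 24 to 46, which is 2-fold at Ezh1 and just short of it at the other two. Without the correction for the median, and with 1 added to each value, the log2 changes were 0.96, 0.93 and 0.91. Relative to the median of the 13097 symbols with H3K4me2 above background, which shifted by −0.09, the changes were 1.05, 1.02 and 1.0, and 5.2% of all symbols were 2-fold higher. This step rests on the PN7 library, the one that stood apart. From PN7 to PN15, 0 genes were called higher, against 15.9% of all symbols, and 1 was called lower, against 17.1%. H3K4me2 at Phf19 fell relative to the median, by 1.47 on the log2 scale (interval −2.17 to −0.80). On the same scale the other 9 genes lay between −0.31 (Kdm6b) and 0.56 (Eed), and as deposited each of these had a higher value at PN15 than at PN7. Without the correction 6 of the 10 genes were 2-fold higher over this step, as were 52.3% of all symbols, and Phf19 had a log2 change of −0.47. The rise at Phf19 up to PN7 and its fall after PN7 both rest on the value of 46 in the PN7 library. From E17.5 to PN15 its relative change was −0.29, with an interval that included 0.

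For H3K27me3 from E17.5 to PN15, 0 of the 10 genes were called higher, against 12.2% of all symbols, and 1 was called lower, Jarid2, against 16.1%. H3K27me3 at Jarid2 went from 13 to 5, a relative log2 change of −1.22 with an interval of −2.99 to 0.18, and both values were below background. The median of the 10 genes was 0.00, as was that of all symbols. At Phf19 the log2 change was −0.27 (−0.79 to 0.22) over the whole span. In steps it was 0.58 (0.15 to 1.03) from E17.5 to PN1, −0.32 (−0.639 to −0.00255) from PN1 to PN7 and −0.36 (−0.80 to 0.02) from PN7 to PN15, each short of 2-fold.

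Between neighbouring stages the calls in H3K27me3 were of genes below background. From E17.5 to PN1, 0 of the 10 genes were called higher (5.77% of all symbols) and 2 lower (8.27%), Eed from 7 to 3 and Mtf2 from 7 to 2. From PN1 to PN7 1 was called higher (8.44%), Mtf2 from 2 to 9, and 0 lower (9.33%). From PN7 to PN15 1 was called higher (15%), Phf1 from 3 to 9, and 1 lower (9.7%), Ezh2 from 5 to 2. The counting intervals of the 3 lower calls included 0, and those of the 2 higher calls, 0.65 to 5.74 at Mtf2 and 0.06 to 2.90 at Phf1, did not. These intervals leave out the rounding of the values, which weighs heavily at values as small as 2 or 3. Nothing is therefore read from the difference between the higher and the lower calls.

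Symbols that carry the mark give another reference for Phf19, chosen after seeing the data. From E17.5 to PN15 the 4035 symbols with H3K27me3 above background had a median log2 change of −0.69 (quartiles −1.25 and 0.03), and 37.3% of them were at least 2-fold lower. Symbols entered this set by passing in any library, and 31.5% of them were below background at PN15, which favours a lower value there. Relative to their median Phf19 stood at 0.42, at percentile 66.2, with an interval of −0.10 to 0.92 that included 0. The 2184 symbols above background in all 4 libraries, of which none was below background at PN15, had a median of −0.83, and relative to it Phf19 stood at 0.56 (0.04 to 1.06). The sign of the change at Phf19 thus depends on the reference, and the interval included 0 with all symbols and with the first of these sets. The 39 Hox genes had a median of −1.12 in the same comparison.

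Other genes of histone-modifying complexes were taken from 4 lists with 47 genes (other PRC2 subunits with Uty, PRC1, H3K4 methyltransferase complexes and H3K4 demethylases), of which 46 were found. H3K4me2 was above background at 40 of them (87.0%, beside 65.3% of all symbols), and H3K27me3 at 7. From E17.5 to PN15 H3K4me2 was called higher at 0 of the 46 (beside 5.17% of all symbols) and lower at 1 (2.17%, beside 12.8%), Lcor, a PRC2 accessory protein, whose values of 3 and 1 were below background. H3K27me3 was called higher at 5 of the 46 genes (10.9%, beside 12.2% of all symbols) and lower at 12 (26.1%, beside 16.1%), and 11 of these 17 were below background in every library.

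The share of the 46 genes with H3K27me3 above background was 15.2%, beside the 20.1% of all symbols, and differences between the lists were not tested. Among 5 other core or accessory proteins of PRC2, listed together with Uty, H3K27me3 was above background at 1, E130012A19Rik (Epop), a PRC2 accessory protein with H3K27me3 of 252, 352, 197 and 122. Rbbp4, a histone-binding subunit, had the highest H3K4me2 of that list, with 109, 71, 59 and 125, and its H3K27me3 ranged from 7 to 10. Uty, the Y-linked relative of Kdm6a and no subunit of PRC2, had the lowest mean H3K27me3 of that list, with 5, 5, 3 and 2. Among 21 genes of Polycomb repressive complex 1 (PRC1), which reads the mark of PRC2, 6 had H3K27me3 above background. Among 13 genes of H3K4 methyltransferase complexes and 6 H3K4 demethylases it was 0.

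The genes with H3K27me3 above background in PRC1 were Bmi1, Pcgf1, Cbx2, Cbx7, Cbx8 and Rybp. Bmi1, which promotes self-renewal of stem cells, had H3K27me3 of 124, 151, 60 and 17, and fell by 2.80 on the relative log2 scale from E17.5 to PN15. Cbx7, a reader of the mark, had 127, 194, 114 and 28, and fell by 2.14. Pcgf1, Rybp and Cbx2 fell by 1.40, 1.38 and 1.3, and Epop by 1.04. Cbx8, the highest of that list, had 178, 321, 142 and 103 and a change of −0.78. Of these 7 genes 6 were thus called lower, and 5 of the 6, all but Epop, were below background at PN15. Pcgf1 (35 at PN15) was above the 95th percentile of olfactory receptors there, and Pcgf1 and Cbx7 (28) above the 99th of vomeronasal receptors, which leaves 4 and 3 of the 6 below. By the main threshold these 5 passed through earlier libraries alone, which favours a lower value at PN15, so that nothing is read from this count. Relative to the median of the symbols with H3K27me3 in any library, which were chosen by the same rule, the changes ran from −2.10 (Bmi1) and −1.45 (Cbx7) over −0.71, −0.69, −0.61 and −0.35 (Pcgf1, Rybp, Cbx2 and Epop) to −0.09 (Cbx8). Hence 4 of the 6 calls were lost with that reference, and nothing is read from the 2 left, since Bmi1 and Cbx7 are among the 5. All 7 also had H3K4me2 above background in all 4 libraries, beside the 75.3% of symbols with H3K27me3 given above.

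**Figure D4:**
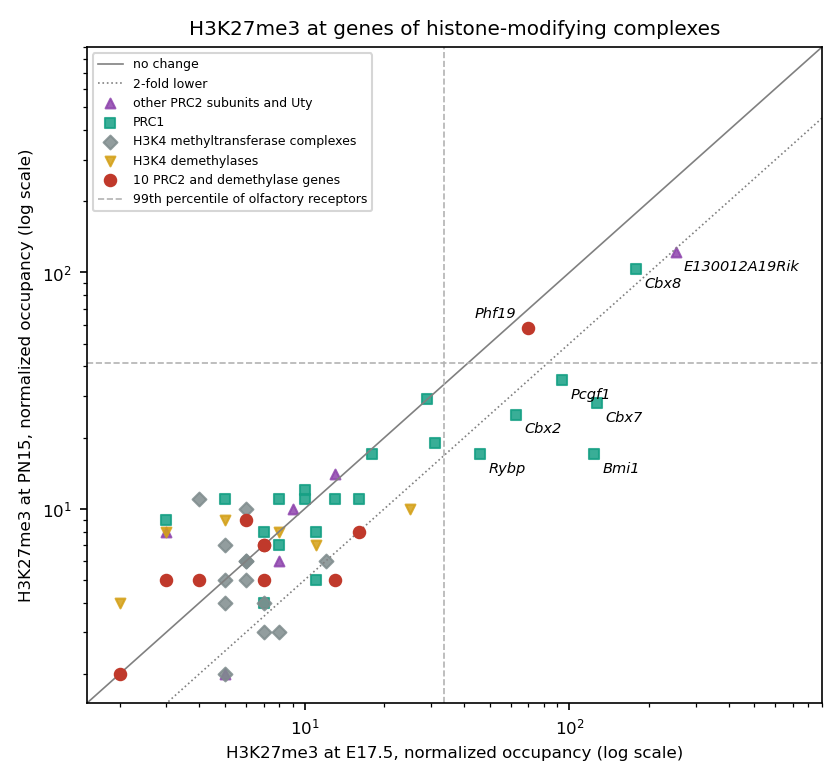
H3K27me3 occupancy at E17.5 and PN15 on log axes for 46 genes of histone-modifying complexes, by list, and for the 10 PRC2 and demethylase genes (red circles). Solid and dotted lines mark no change and 2-fold lower, and dashed lines the olfactory receptor background. Phf19 lies near the line of no change at 70 and 58, and 6 of the 7 labelled genes of the lists lie below the 2-fold line.

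The other 6 genes called lower (Uty, Pcgf5, Setd1a, Wdr5, Men1 and Kdm5c) and the 5 called higher (Lcor, Phc1, L3mbtl2, Mll1 and Kdm5a) had H3K27me3 below background in every library. Kdm5c, an X-linked H3K4 demethylase, had the highest of these, with 25 at E17.5 and 10 at PN15, and its 25 was above both lower thresholds of that library, 21.0 and 19.55. In H3K4me2 the highest mean of PRC1 was that of Kdm2b, which binds CpG islands, with 147, 93, 107 and 139. Phc2 had the lowest, with 7, 6, 1 and 8. Mll1 led the H3K4 methyltransferase complexes with 136, 86, 131 and 152, Ncoa6 was last with 4, 2, 0 and 9, and Kdm5a led the H3K4 demethylases with 100, 62, 43 and 106, where Kdm5d, on the Y chromosome, was last with 8, 2, 3 and 15. The lowest mean H3K27me3 of each list was 3.75 at Uty, 6.25 at Phc1, 3.50 at Setd1a and 4.75 at Kdm5d, and the highest mean of the methyltransferase list was 10, at Mll1.

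The profile of each gene over the 8 libraries was compared with all other symbols by the Euclidean distance between log2 values, each library being centred on its median. Phf19 was nearest to Batf3, a transcription factor gene (distance 0.47, against a median of 6.99 over all symbols), then to 5430405G05Rik (0.51) and Oaf (0.60). Batf3 had H3K4me2 of 33, 26, 46 and 35 and H3K27me3 of 68, 82, 83 and 51. Phf1 had no neighbour as near, the first being the H3K4 demethylase gene Kdm5b at 0.84, with H3K4me2 of 44, 29, 35 and 91, followed by Fiz1 (0.90) and Slc25a38 (0.93). Ezh1 was nearest to Iqgap1 (0.71), Trib3 (0.73) and Kifc3 (0.74), and Ezh2 to Akap8 (0.63), Stag1 (0.64) and Pcmtd1 (0.69). Eed was nearest to Tsc22d1 (0.52), Suz12 to Dazap1 (0.56), Jarid2 to Rps9 (0.50), Mtf2 to Ctu1 (0.59), Kdm6a to Plk4 (0.56) and Kdm6b to Spen (0.52). Among the 10 genes themselves the nearest pair was Ezh2 and Kdm6a at 1.37 and the farthest Ezh2 and Phf19 at 8.96. The catalytic pair, Ezh1 and Ezh2, was 4.36 apart. All 8 libraries count alike in these distances, so that H3K27me3 values below background enter them too. For this pair those were 16, 18, 15 and 8 at Ezh1 and 2, 3, 5 and 2 at Ezh2, and a few reads can move the distance.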

How the data were processed

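The H3K4me2 and H3K27me3 ChIP-Seq libraries of mouse retina at E17.5, PN1, PN7 and PN15 were used. The authors isolated mononucleosomes with micrococcal nuclease, mapped the reads with Bowtie 0.12.4 to mm9, removed reads with several positions, took the midpoint of an assumed fragment of 190 bp, and summed midpoints over 2.5 kb on either side of every RefSeq TSS. What the authors deposited is a score for each entry, the sum after scaling by the number of mapped reads and rounding to integers, and no count model was therefore used. A further 2 libraries of the series were not analysed here, and 3 genes of the pathway and marker lists are not reported here.

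In the header the mark of the PN7 H3K27me3 library is followed by a letter b. Of several entries of a symbol, that with the largest total was kept. The value of 1 read was estimated from the regular unevenness that rounding leaves in how often each whole number occurs, and lay between 0.313 and 0.946 in 5 libraries. In the H3K4me2 libraries of PN7 and PN15 and the H3K27me3 library of E17.5 no such pattern was found, and 1 unit was taken as 1 read, an upper limit, since no whole number was skipped. A total of 3 reads, the smallest amount taken as detectable, thus corresponded to an occupancy of at most 3.00. Intervals are exact Poisson 95% intervals for values and exact conditional intervals for ratios. They cover counting error only, leave out the rounding of up to 0.5, and are too wide where the value of 1 read is an upper limit. Changes are log2 ratios with a pseudocount of 1, relative to the median of all symbols, with a 2-fold limit in place of a test.

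The genes named were the 10 members, genes of the pathway lists with a 2-fold change or with the highest or lowest mean of their list, and the 3 symbols nearest to each member, of which the text gives only the nearest for 6 of the members. The members and lists were chosen with earlier results of these data known. Gene coordinates are those of GENCODE vM1 on NCBIM37 (mm9). The estimate of read values and the intervals were tested on simulated data. The calculations were made in Python 3.11.15 (scipy 1.17.1, numpy 2.4.6, pandas 2.3.3, matplotlib 3.10.9). The alternatives tried were a pseudocount of 5, other centrings, a filter on low values, the mean over entries, a 1.5-fold limit and other backgrounds.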

Additional observations from a re-analysis of the deposited data

How the results depend on the processing

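Each stage and mark had 1 library, so no value could be tested against replicate error or by leaving out a replicate. No paired analysis was possible because no group had a second library. Of the values that answer a comparison, 35 of 50 recomputed ones stayed within 1.5 times of a count or within the counting error, and none of the alternatives run turned the sign of a called gene. The H3K27me3 calls between neighbouring stages were not recomputed. The count of genes with a 2-fold change in H3K4me2 from E17.5 to PN15 was 2 with a 1.5-fold limit (Phf1 and Kdm6b, beside 14.3% of all symbols higher), and the median change of the 10 genes was 0.36 without centring. From E17.5 to PN1 the count was 2 without centring and 2 with a 1.5-fold limit (Ezh1 and Suz12 lower in both, beside 6.78% of all symbols in either). Without centring it was 0 from PN1 to PN7, beside 4.09% of all symbols higher and 36.8% lower (Ezh1, at 19 and 38, fell short only through the added 1). From PN7 to PN15 it was 6, all higher, beside 52.3% of all symbols higher. Centring is what differs in these, since the medians of all symbols moved by −0.50 and 1.0 over these steps.

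For H3K27me3 from E17.5 to PN15 the call of Jarid2 rested on 13 against 5. The count was 0 with a pseudocount of 5 and 0 with centring on symbols with H3K4me2 (median change 0.24, beside 26.1% of all symbols called). It was also 0 among symbols above background, of which Phf19 was the only member (0.46). The share of all symbols was not computed for the pseudocount of 5 or for the symbols above background. With centring on symbols with H3K27me3, an alternative chosen after seeing the data, 2 were called higher (Phf1 and Kdm6a, both below background, beside 33.7% of all symbols), with a median of 0.69. With a 1.5-fold limit it was 3 (52.2% of all symbols). With the 99th percentile of vomeronasal receptors as background, H3K27me3 was above it at 2 genes, Phf19 and Ezh1 (36.7% of all symbols). The alternatives between neighbouring stages, which were run for H3K4me2 only, were also chosen after seeing the data. So was the omission of the PN7 library from the count with H3K4me2, which stayed at 10. At the 7 genes with H3K27me3 below 10 at both E17.5 and PN15, the counting interval of the change reached past 2-fold in both directions.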
